A study of Mus musculus with 28 samples.

Results

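The transcriptome of the wound site on day 7 was compared with that at the start of the series. The comparison used 8 of 28 libraries, 4 from day 7 and 4 from the earliest time point, chosen by the time given in the sample labels, and covered all genes, of which 16863 of 29068 in the table had enough counts to be tested. All libraries came from skin of MLKL+/+ mice, which are wild type C57BL/6J mice aged 8 weeks, with no treatment other than natural healing after a punch of 6 mm diameter through the skin of the back down to the fascia. The sampled tissue was the whole wound site, including the scab and the epithelial margins, so that new granulation tissue and wound edge were read together. Transcripts of fat and skeletal muscle were measured as well, although the paper does not say whether these layers were taken. The earliest time point is called day 0 here, as in the labels, which use it as the control. The methods of the paper count it as day 1. The design text of the series speaks of 5 repeats, and 4 libraries per time point were analyzed here. No label says whether the libraries of a day came from separate mice, so that p-values measure the spread between these libraries.

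Granulation tissue is the temporary connective tissue that fills a wound. In its formation, neutrophils and monocyte-derived macrophages clear debris, fibroblasts deposit a provisional matrix rich in fibronectin and tenascin that is replaced by collagen, new capillaries sprout from older vessels, and keratinocytes migrate from the edge to cover the defect. Some fibroblasts become contractile myofibroblasts that draw the margins together. In whole tissue, fewer cells of a type and less RNA per cell cannot be told apart.

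The libraries held between 36706513 and 40492661 counts on genes. Levels are given as CPM, the counts of a gene scaled to a common library total with TMM factors, and the libraries of a day are listed in the order replicate 1 to 4. Skin markers were present in all 8 libraries. Krt14, a keratin of basal epidermis, was measured at 1944, 880.2, 859 and 2103 CPM on day 0 and 1274, 1624, 1392 and 1611 CPM on day 7. Xist, the transcript of the inactive X chromosome, was at 0.109 CPM or less in each of the 8 libraries, and of the 4 Y chromosome genes listed, 1 was higher on day 7 and 0 lower (median log2 fold change 0.19), or 1 and 0 (median 0.10) against day 0 replicates 2 and 3 alone and 3 and 0 (median 0.31) against replicates 1 and 4 alone. The summed level of these Y chromosome genes ranged over 146.5 to 179 CPM on day 0 and 165 to 187 CPM on day 7. Each of the 8 libraries was thus male by expression, although the methods of the paper give both sexes. Near-identical genes (Hba, Hbb, Sprr2, Stfa, Lce, Krtap, Krt6, Ccl21 and Gapdh copies) may share reads, as may overlapping or antisense genes.

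The day 0 libraries were not alike. Replicates 2 and 3 resembled each other (Pearson r = 0.991 of log2 CPM across genes) and stood apart from replicates 1 and 4, and the correlations within day 0 went down to 0.965, against 0.990 to 0.992 within day 7. The biological coefficient of variation was 26.4% on day 0 and 8.47% on day 7. Col1a1, a chain of the main dermal collagen, was measured at 7362, 16736, 16245 and 4019 CPM on day 0 and 15492, 15262, 15640.0 and 15682 CPM on day 7. Arntl, a core clock activator, was measured at 12.1, 45.5, 47 and 6.76 CPM on day 0 and 13.6, 13.8, 12.7 and 14.3 CPM on day 7. Per1, a clock repressor, was measured at 92, 22.3, 22 and 116 CPM on day 0 and 36.7, 37.3, 37.2 and 32.6 CPM on day 7. Replicates 2 and 3 were high in collagen and Arntl and low in Per1, while the day 7 libraries lay between the extremes of day 0 for all of these genes. Tenascin C (Tnc) and osteopontin (Spp1), products of injured tissue, were also higher in replicates 1 and 4 than in replicates 2 and 3 of day 0. No label names a batch or a time of day for these libraries. Lists whose median turned sign, or whose counts moved over 1.5 times and by more than 1 gene, with either pair are given against each pair.

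**Figure D1:**
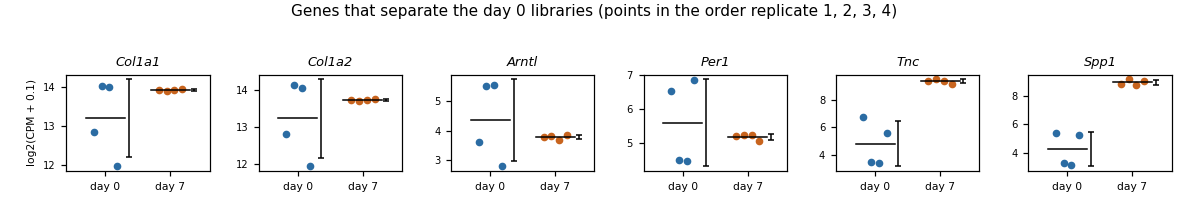
Expression of 6 genes in the 4 day 0 (blue) and 4 day 7 (orange) libraries, on a vertical axis of log2(CPM + 0.1), with points in the order replicate 1 to 4, a line at the mean and a bar of 1 SD. Day 0 replicates 2 and 3 pair together and apart from replicates 1 and 4 in every panel, whereas the day 7 points lie close together.

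Library 4 of day 7 showed a trend with gene length. Relative to the other libraries of day 7, its log2 CPM fell by 0.061 for each doubling of gene length, whereas replicates 1 to 3 had slopes of 0.00528 to 0.0373. Its median deviation went from 0.125 in the shortest of 10 equal sets of genes to -0.113 in the longest. Day 0 replicate 1 had a slope of the same size (-0.069), so that the trend occurred on both sides of the comparison. The median log2 fold change was -0.04, -0.04, -0.03 and -0.04 in 4 equal sets of genes from short to long. With a length term fitted for each library it became -0.11, -0.02, 0.00 and 0.02. Without day 7 replicate 4, 85.9% of the calls of the comparison were kept, and none changed direction. Lists whose median moved by over 0.15 with the length term are given under both fits.

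**Figure D2:**
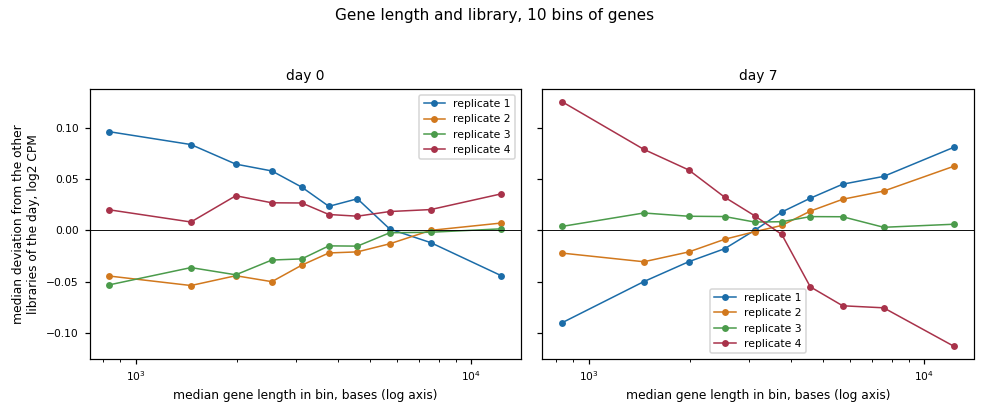
Median deviation of log2 CPM from the other libraries of the same day (vertical axis) in 10 bins of genes ordered by length in bases (horizontal log axis), with 1 line per library. Day 7 replicate 4 runs from 0.125 to -0.113 and day 0 replicate 1 from 0.0961 to -0.0439, and day 7 replicate 1 runs the other way, from -0.0898 to 0.081.

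With the quasi-likelihood test in edgeR and p adjusted by the Benjamini-Hochberg method, 3030 genes rose and 3739 fell on day 7 at an adjusted p under 0.05, which is 18.0% and 22.2% of the genes tested, and 3645 and 4556 had an unadjusted p under 0.05. The excess of decreases depended on the scaling, since 3356 genes rose and 3336 fell with library totals alone, and DESeq2 called 3590 and 3753. With a log2 fold change over 1.5 as well, 557 genes (3.30%) were higher and 762 (4.52%) were lower. The libraries of the days did not overlap for 41.3% of genes, 18.7% in the higher and 22.6% in the lower direction. The median log2 fold change of all genes tested was -0.04. Against day 0 replicates 2 and 3 alone 25% of genes rose and 24.6% fell, and against replicates 1 and 4 alone 22.8% rose and 22.8% fell. The shares of each fit and this median are the background for the list counts from that fit, and "rose" and "fell" refer to the adjusted p. Lists are described by counts, without a test of the list. A gene that reached 10 counts in all 4 libraries of 1 day and not of the other passed the filter on low counts through that day, which favored its direction. It is named with no fold change or p, and levels are given for many such genes. Such genes were 4 of 14 neutrophil genes, 5 of 22 cytokine and chemokine genes, 18 of 52 keratin-associated genes and at most 3 genes in each other list. Among genes that reached 10 counts in all libraries of both days, 8 of 9 neutrophil genes and 10 of 17 cytokine and chemokine genes rose. A count that moved over 1.5 times, and by more than 1 gene, when a library was left out is given with that library.

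**Figure D3:**
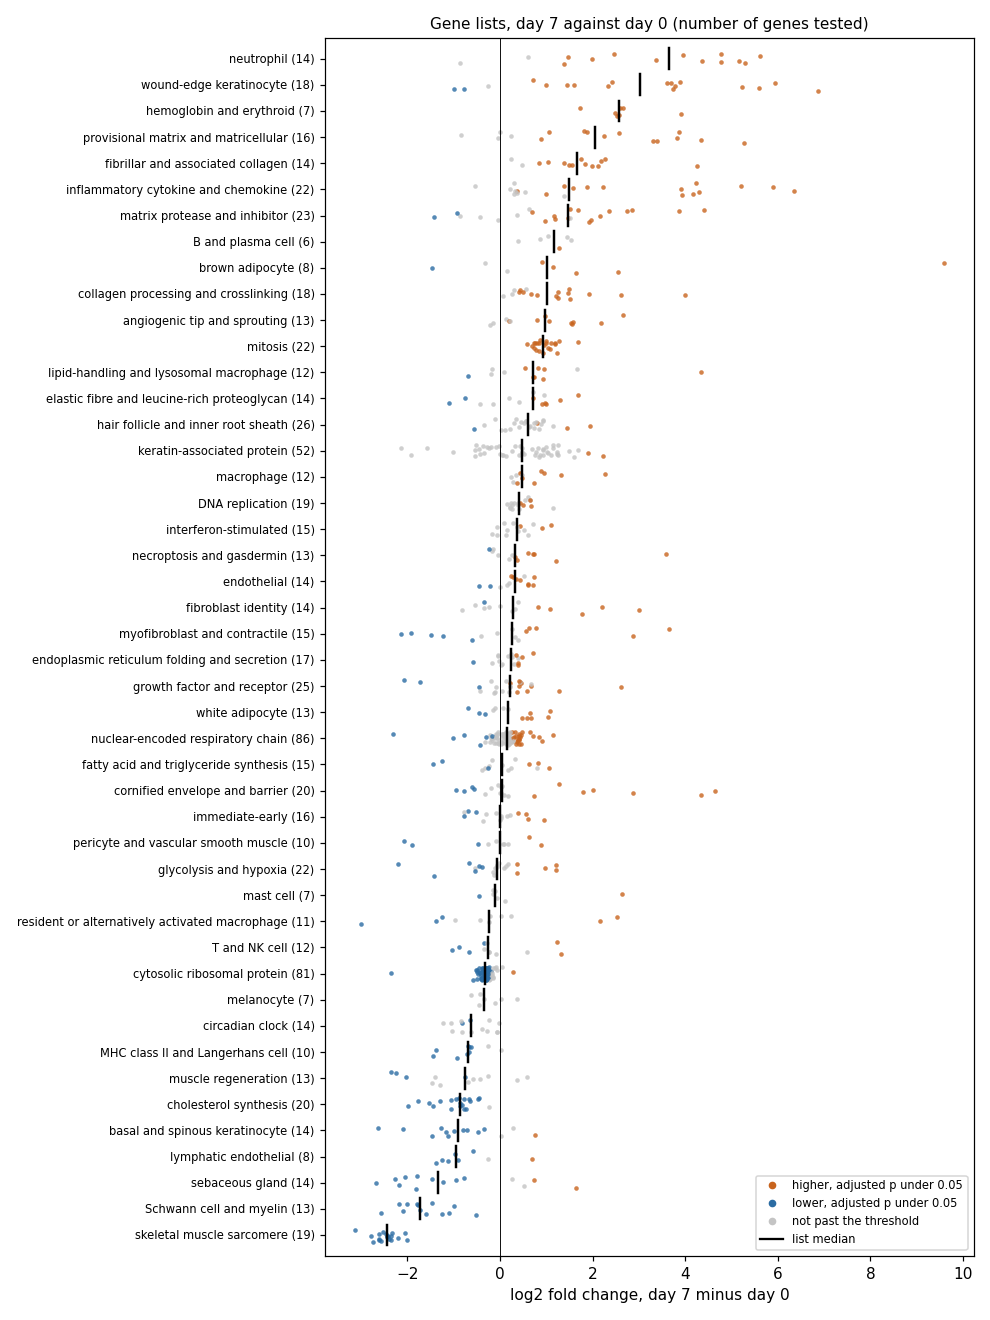
Log2 fold change, day 7 minus day 0 (horizontal axis), of each gene tested in 46 lists (rows, with the number of genes tested), colored orange for higher, blue for lower and grey for not past an adjusted p of 0.05. Black bars are list medians, from -2.45 for skeletal muscle to 3.66 for neutrophils.

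The 10 largest increases were taken from calls with a mean of at least 10 CPM on day 7. No overlap between the libraries of the days and the same call without any single library were required as well. The largest decreases were chosen in the same way, with the mean taken on day 0. Ucp1, the uncoupling protein of heat-producing fat, was measured at 0.154, 0.381, 1.27 and 1.01 CPM on day 0 and 494, 570.4, 535 and 565 CPM on day 7. It was low in each day 0 library and abundant in each day 7 library. Prss35, a secreted protein of the trypsin family, was measured at 1.69, 0.585, 0.649 and 1.39 CPM on day 0 and 172, 158, 156 and 171 CPM on day 7 (log2 fold change 7.25 ± 0.28 (SE), adjusted p = 6.7e-07). Acod1, which makes itaconate in activated macrophages, was measured at 0.846, 0.153, 0.104 and 0.927 CPM on day 0 and 41.7, 49.3, 39.8 and 42.5 CPM on day 7. The lack of overlap between the days in these genes was thus a condition of their choice. Also among these 10 were Sprr2d (log2 fold change 6.87 ± 0.24), a small proline-rich protein of stressed epidermis, and Itih4 (6.51 ± 0.48), an inter-alpha-trypsin inhibitor heavy chain. The others were Sprr2i, of the same family as Sprr2d, Brinp3, the neutrophil attractants Cxcl3 and Cxcl5, and Cpn2, the regulatory subunit of carboxypeptidase N. Cxcl5 was measured at 1.46, 0.102, 0.182 and 0.136 CPM on day 0 and 27.3, 28.1, 28.1 and 30.4 CPM on day 7. Among the 10 largest decreases, Ttn, the giant spring of the sarcomere, was measured at 1513, 714, 704 and 2294 CPM on day 0 and 171, 184, 149 and 90.6 CPM on day 7 (log2 fold change -3.13 ± 0.42 (SE), adjusted p = 0.00034). Mylk2, the light chain kinase of skeletal muscle, was measured at 304, 180.5, 175 and 291 CPM on day 0 and 23.4, 26, 24 and 26.1 CPM on day 7 (log2 fold change -3.26 ± 0.20 (SE), adjusted p = 4.2e-06). For Ttn and Mylk2, too, the lack of overlap was a condition of their choice, and the day 0 libraries 1 and 4 were higher than 2 and 3. Among the other decreases were Mylk4 (-3.25 ± 0.58), a related kinase, Nos1 (-3.24 ± 0.20), the nitric oxide synthase of muscle and nerve, Trim63 (-3.13 ± 0.41), a ubiquitin ligase of muscle atrophy, Klhl38 (-3.32 ± 0.43), Lrrc30 (-3.23 ± 0.19), Asb15 (-3.11 ± 0.25), Wfdc3 (-3.98 ± 0.39) and Uckl1os (-3.18 ± 0.42), whose name marks it as an opposite-strand transcript and whose reads may not be separable from those of its partner.

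**Figure D4:**
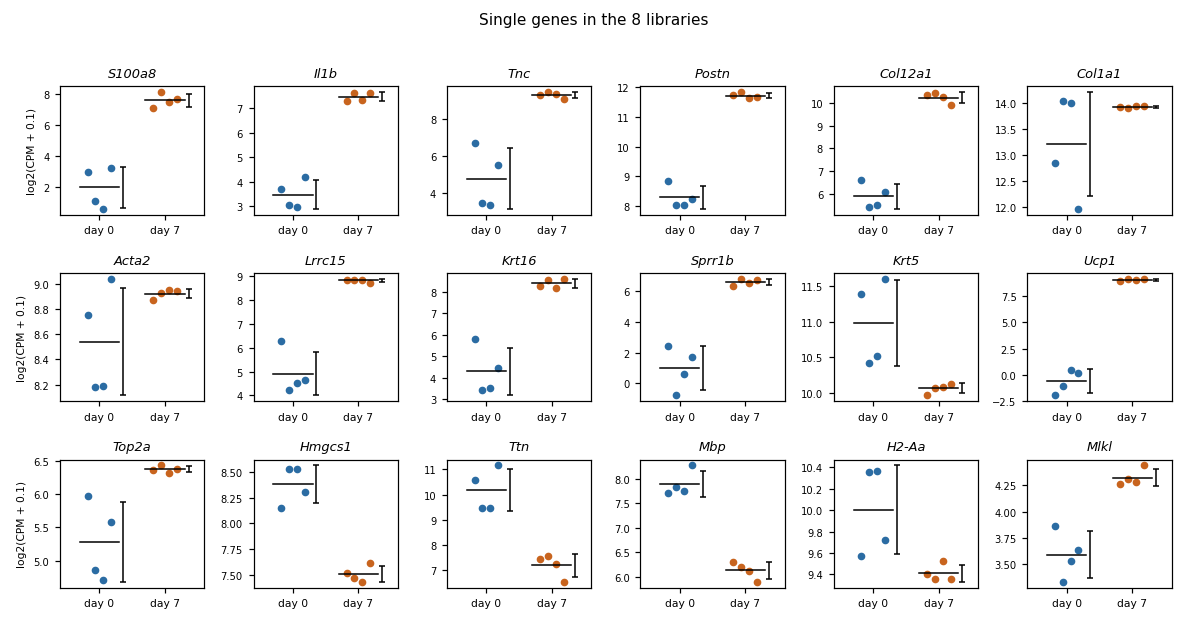
Expression of 18 genes in the 4 day 0 (blue) and 4 day 7 (orange) libraries, on a vertical axis of log2(CPM + 0.1), with a line at the mean and a bar of 1 SD. Day 7 points lie above all day 0 points for S100a8, Il1b, Tnc, Postn, Col12a1, Lrrc15, Krt16, Sprr1b, Ucp1, Top2a and Mlkl and below all of them for Krt5, Hmgcs1, Ttn, Mbp and H2-Aa, and Col1a1 and Acta2 overlap.

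Neutrophil and inflammatory transcripts were far above the start. Of 14 neutrophil genes tested, 12 rose and 0 fell (median log2 fold change 3.66), and their summed level ranged over 129.7 to 269 CPM on day 0 and 891 to 1343 CPM on day 7. S100a8, a calcium-binding alarmin abundant in neutrophils and in activated keratinocytes, was measured at 7.85, 1.98, 1.4 and 9.25 CPM on day 0 and 137, 278, 175 and 209 CPM on day 7 (log2 fold change 5.29 ± 0.59 (SE), adjusted p = 0.00011). Its partner S100a9 was measured at 15.8, 5.95, 4.96 and 19.9 CPM on day 0 and 298, 548, 363 and 463 CPM on day 7 (log2 fold change 5.17 ± 0.48 (SE), adjusted p = 3.9e-05). Trem1, an amplifying receptor of neutrophils and monocytes, was measured at 1.1, 0.0508, 0.182 and 0.655 CPM on day 0 and 23.1, 28, 22.3 and 24.7 CPM on day 7. The 4 day 7 libraries exceeded the 4 day 0 libraries for each of these genes, and day 0 replicates 1 and 4 were above 2 and 3 for both S100 genes. Cxcr2, the chemokine receptor that recruits neutrophils, rose (log2 fold change 4.78 ± 0.25 (SE), adjusted p = 2.2e-06), and Il1r2, a decoy receptor for interleukin 1, was at -0.86 ± 0.32 (adjusted p = 0.055). The neutrophil genes Camp, Ly6g, Ngp and Ltf were low throughout. Camp reached at most 0.589 CPM in any of the 8 libraries (log2 fold change 0.61 ± 0.60, adjusted p = 0.45), and Ly6g, Ngp and Ltf had too few counts to be tested, with at most 12, 43 and 16 counts in a day 7 library.

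Of 22 cytokine and chemokine genes, 14 rose and 0 fell (median 1.48). Il1b, the main inflammatory interleukin of myeloid cells, was measured at 12.8, 8.26, 7.61 and 18.2 CPM on day 0 and 158, 197, 160.3 and 201 CPM on day 7 (log2 fold change 3.93 ± 0.28 (SE), adjusted p = 8.3e-06). Il1a, its relative made by keratinocytes, was measured at 5.00, 5.01, 7.06 and 2.84 CPM on day 0 and 8.39, 12.2, 9.11 and 10.1 CPM on day 7 (log2 fold change 1.00 ± 0.25 (SE), adjusted p = 0.01). Both were higher in each day 7 library, with a larger fold change for Il1b. Cxcl3, a ligand of Cxcr2, was measured at 0.385, 0, 0.0519 and 0.436 CPM on day 0 and 16.6, 19.5, 14.3 and 21.2 CPM on day 7. Ptgs2, the inducible cyclooxygenase, rose as well (log2 fold change 4.24 ± 0.39 (SE), adjusted p = 3.2e-05), as did Tnf (log2 fold change 2.22 ± 0.19 (SE), adjusted p = 2.4e-05). Among members that did not pass, Ccl2 was at 0.30 ± 0.36 (adjusted p = 0.54), Ccl7 at 0.37 ± 0.21 (adjusted p = 0.19), and Lif, an interleukin 6 family cytokine, at -0.53 ± 0.46 (adjusted p = 0.39). Interferon-stimulated genes depended on the start. Of 15 tested, 3 rose and 0 fell against all 4 day 0 libraries (median 0.36), or 14 and 1 (median 1.07) against day 0 replicates 2 and 3 alone and 3 and 2 (median 0.01) against replicates 1 and 4 alone, and 7 rose without day 0 replicate 1. Cxcl9, an interferon gamma-induced T cell attractant, was measured at 10.4, 12.4, 9.71 and 9.9 CPM on day 0 and 21.1, 25.4, 23.4 and 20.7 CPM on day 7 (log2 fold change 1.10 ± 0.11 (SE), adjusted p = 5.3e-05). Ifit1, an antiviral RNA-binding protein, also rose (log2 fold change 0.91 ± 0.19 (SE), adjusted p = 0.005), while Isg15 (0.72 ± 0.32, adjusted p = 0.1) and Usp18 (-0.17 ± 0.12, adjusted p = 0.29), the tag and the protease of ISGylation, did not pass.

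Most pan-macrophage genes rose modestly. Of 12, 8 were higher and 0 lower, with a median log2 fold change of 0.47, and their summed level ranged over 1513 to 1996 CPM on day 0 and 2403 to 2514 CPM on day 7. Cd14, the lipopolysaccharide co-receptor, was measured at 25.9, 23.9, 25.5 and 23.5 CPM on day 0 and 112, 134, 102 and 127 CPM on day 7 (log2 fold change 2.27 ± 0.09 (SE), adjusted p = 7.7e-07). Cd68, a lysosomal glycoprotein of phagocytes, was measured at 132, 79.1, 81.2 and 101 CPM on day 0 and 193, 198, 198 and 172 CPM on day 7 (log2 fold change 0.95 ± 0.15 (SE), adjusted p = 0.0011). For both, all day 7 libraries were above all day 0 libraries. Adgre1, which encodes F4/80, was at 0.35 ± 0.14 (adjusted p = 0.074) and C1qa, a complement chain made by tissue macrophages, at 0.24 ± 0.10 (adjusted p = 0.073). The lipid-handling and lysosomal list of 12 had 7 higher and 1 lower genes (median 0.72). Spp1 was measured at 42.2, 9.66, 8.77 and 37.4 CPM on day 0 and 449, 576, 430.4 and 521 CPM on day 7 (log2 fold change 4.33 ± 0.54 (SE), adjusted p = 0.00021). Gpnmb, a glycoprotein of lipid-laden macrophages, was measured at 241, 172, 169 and 146 CPM on day 0 and 303, 333, 288 and 284 CPM on day 7 (log2 fold change 0.73 ± 0.14 (SE), adjusted p = 0.0032). Both were higher in each day 7 library. Trem2, the lipid receptor of these cells, was measured at 23.5, 2.24, 2.54 and 19.9 CPM on day 0 and 37.8, 40.7, 37.3 and 37.1 CPM on day 7. Its libraries did not overlap, but the 2 day 0 pairs were far apart and the adjusted p was 0.074. Cd9, a tetraspanin, fell (log2 fold change -0.69 ± 0.08 (SE), adjusted p = 0.00015).

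Of 11 genes of resident or alternatively activated macrophages, 2 rose and 3 fell (median -0.24), shares near those of all genes. The counts were 2 and 8 (median -0.55) against day 0 replicates 2 and 3 alone, 4 and 3 (median 0.23) against replicates 1 and 4 alone, and 2 and 6 without day 0 replicate 4. Retnla, a type 2 response marker, was measured at 169, 508, 507 and 225 CPM on day 0 and 39.2, 42.5, 41.9 and 51.1 CPM on day 7 (log2 fold change -3.01 ± 0.36 (SE), adjusted p = 0.00016). Every day 7 library was below every day 0 library. Both increases were over 1.5 on the log2 scale. Chil3, a chitinase-like protein, was 1 of them, but it passed the filter on low counts through day 7 and did not pass without day 7 replicate 2, 3 or 4. The other was in a gene that reached 10 counts in all libraries of both days, and 1 gene of the list still rose in each of these fits. The scavenger receptors Mrc1 (0.23 ± 0.25, adjusted p = 0.5) and Cd163 (-0.44 ± 0.28, adjusted p = 0.25) did not pass.

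With all 8 libraries, most genes of MHC class II and Langerhans cells fell. Of 10 MHC class II and Langerhans cell genes, 0 rose and 8 fell (median -0.69), or 0 and 8 (median -0.93) against day 0 replicates 2 and 3 alone and 0 and 6 (median -0.28) against replicates 1 and 4 alone, and 4 and 5 fell without day 7 replicate 2 or 4, respectively. H2-Aa, a class II alpha chain, was measured at 762, 1308, 1318 and 843 CPM on day 0 and 675, 655, 736 and 655 CPM on day 7 (log2 fold change -0.64 ± 0.18 (SE), adjusted p = 0.019). Cd74, the invariant chain, fell with it (log2 fold change -0.68 ± 0.19 (SE), adjusted p = 0.021). Day 0 replicates 2 and 3 held the highest levels and no day 7 library reached the lowest day 0 library. The call for H2-Aa did not pass without day 7 replicate 2 or 4 (highest adjusted p = 0.054), and that for Cd74 did not pass without day 0 replicate 2 or 3 or day 7 replicate 1 or 2 (highest adjusted p = 0.063). Cd207, langerin of epidermal Langerhans cells, was measured at 19, 23.9, 22.5 and 20.5 CPM on day 0 and 8.92, 7.28, 7.85 and 8.91 CPM on day 7 (log2 fold change -1.38 ± 0.11 (SE), adjusted p = 1.5e-05), a decrease seen in each day 7 library. Cd209a, a lectin of dermal dendritic cells, had the lowest fold change (log2 fold change -1.44 ± 0.44 (SE), adjusted p = 0.027) with overlapping libraries and did not pass without day 0 replicate 2 or 3 or day 7 replicate 1, 2, 3 or 4 (highest adjusted p = 0.071), and Flt3, a dendritic cell growth factor receptor, was at 0.02 ± 0.13 (adjusted p = 0.9).

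Lymphocyte transcripts were scarce. Of 12 T and NK cell genes, 2 rose and 4 fell (median -0.27), or 4 and 5 (median -0.02) against day 0 replicates 2 and 3 alone and 2 and 6 (median -0.50) against replicates 1 and 4 alone, with a summed level of 66 to 69.3 CPM on day 0 and 62.4 to 70.3 CPM on day 7. Cd4, which is also made by macrophages, was measured at 8.59, 12.4, 11.2 and 5.7 CPM on day 0 and 23.5, 22.5, 23.5 and 25 CPM on day 7 (log2 fold change 1.32 ± 0.21 (SE), adjusted p = 0.00086). Cd3e, a subunit of the T cell receptor complex, was measured at 6.15, 6.05, 6.49 and 4.77 CPM on day 0 and 3.96, 3.69, 3.73 and 3.35 CPM on day 7 (log2 fold change -0.67 ± 0.14 (SE), adjusted p = 0.0038). The CD3 gene and the cytotoxic gene Prf1 (log2 fold change -1.04 ± 0.16 (SE), adjusted p = 0.00083) were lower in all day 7 libraries, against a higher Cd4, and Cd3d was at -0.25 ± 0.16 (adjusted p = 0.26). Of 6 B and plasma cell genes, 1 rose and 0 fell (median 1.16), or 2 and 0 (median 0.72) against day 0 replicates 2 and 3 alone and 3 and 0 (median 1.96) against replicates 1 and 4 alone. Of these genes, Cd79a, Pax5 and Mzb1 passed the filter on low counts through day 7. Among the 2 that reached 10 counts in all libraries of both days, 0 rose. The increase was that of Mzb1, a gene of antibody-secreting cells, and did not pass without day 0 replicate 1, 2 or 4 or day 7 replicate 2, 3 or 4. Jchain, the joining chain of secreted antibody, was measured at 3.18, 8.03, 6.57 and 0.273 CPM on day 0 and 12, 11.4, 11.2 and 14.9 CPM on day 7 (log2 fold change 1.45 ± 0.64, adjusted p = 0.1). Of 7 mast cell genes, 1 rose and 1 fell (median -0.10), or 1 and 4 (median -0.22) against day 0 replicates 2 and 3 alone and 2 and 1 (median 0.20) against replicates 1 and 4 alone. Fcer1a, the alpha chain of the IgE receptor, was measured at 0.846, 1.07, 0.597 and 0.600 CPM on day 0 and 4.71, 5.1, 5.06 and 4.68 CPM on day 7 (log2 fold change 2.64 ± 0.21 (SE), adjusted p = 1.6e-05), and Mcpt4, a connective tissue mast cell chymase, fell (log2 fold change -0.46 ± 0.09 (SE), adjusted p = 0.003). The defining mast cell genes Kit (0.11 ± 0.12, adjusted p = 0.53) and Cpa3 (-0.15 ± 0.18, adjusted p = 0.52) did not pass.

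Genes of the extracellular matrix rose widely. Of 14 collagen genes, 12 rose and 0 fell (median 1.66), with a summed level of 13881 to 52332 CPM on day 0 and 58694 to 59289 CPM on day 7. Col12a1, a collagen that sits on fibril surfaces, was measured at 96.8, 42.6, 45.5 and 67.8 CPM on day 0 and 1275, 1384, 1224 and 949 CPM on day 7 (log2 fold change 4.26 ± 0.28 (SE), adjusted p = 6.1e-06). Col5a1, which limits fibril diameter, was measured at 346, 557, 524 and 217 CPM on day 0 and 1784, 1817, 1759 and 1812 CPM on day 7 (log2 fold change 2.13 ± 0.26 (SE), adjusted p = 0.0002). Col3a1, the collagen of early scar, was measured at 7045, 14812, 13923 and 4168 CPM on day 0 and 20633, 20567, 20364 and 19957 CPM on day 7 (log2 fold change 1.03 ± 0.35 (SE), adjusted p = 0.04). The day 7 libraries were above those of day 0 for each of these genes, although Col3a1 did not pass without day 0 replicate 1 or day 7 replicate 1, 2, 3 or 4 (highest adjusted p = 0.082). The abundant chains of type I collagen did not pass, with Col1a1 at 0.48 ± 0.38 (adjusted p = 0.35) and Col1a2 at 0.24 ± 0.41 (adjusted p = 0.67), and day 0 replicates 2 and 3 were above the day 7 libraries for both.

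Of 16 provisional matrix and matricellular genes, 12 rose and 0 fell (median 2.06). Tnc was measured at 107, 11.2, 10.4 and 46.7 CPM on day 0 and 643, 711, 663 and 559 CPM on day 7 (log2 fold change 3.87 ± 0.71 (SE), adjusted p = 0.0022). Tnn, the related tenascin N, was measured at 10.1, 4.35, 3.89 and 9.03 CPM on day 0 and 261, 269, 258 and 267 CPM on day 7 (log2 fold change 5.27 ± 0.32 (SE), adjusted p = 4e-06). Postn, periostin, which links collagen and fibronectin, was measured at 464, 266, 263 and 302 CPM on day 0 and 3422, 3652, 3177 and 3257 CPM on day 7 (log2 fold change 3.38 ± 0.19 (SE), adjusted p = 3.3e-06). All 3 were higher in every day 7 library, and for Tnc the day 0 libraries differed among themselves. Fn1, fibronectin, was measured at 559, 1285, 1238 and 383 CPM on day 0 and 1915, 2039, 1892 and 1362 CPM on day 7 (log2 fold change 1.06 ± 0.36 (SE), adjusted p = 0.041) and did not pass without day 0 replicate 1 or day 7 replicate 1, 2, 3 or 4 (highest adjusted p = 0.095). Ccn2, connective tissue growth factor, was at -0.84 ± 0.38 (adjusted p = 0.11). Its sign depended on the start, being below day 0 replicates 1 and 4 and above replicates 2 and 3.

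Most enzymes that modify and crosslink collagen also rose. Of 18, 14 rose and 0 fell (median 1.00). Lox, lysyl oxidase, which starts crosslinks, was measured at 145, 245, 226 and 79.3 CPM on day 0 and 427, 409, 396 and 375 CPM on day 7 (log2 fold change 1.21 ± 0.29 (SE), adjusted p = 0.0096). P4ha3, a subunit of collagen prolyl hydroxylase, was measured at 3.31, 0.432, 0.234 and 1.69 CPM on day 0 and 24.6, 24, 23.6 and 18.5 CPM on day 7. Plod2, the lysyl hydroxylase of fibrotic crosslinks, was measured at 6.77, 4.5, 5.82 and 6.16 CPM on day 0 and 36, 36.9, 33.1 and 36.6 CPM on day 7 (log2 fold change 2.62 ± 0.12 (SE), adjusted p = 1.5e-06). None of their day 7 libraries overlapped day 0. Loxl1, an elastin crosslinker, rose too (log2 fold change 1.25 ± 0.20 (SE), adjusted p = 0.00096), while Loxl4 was at 0.07 ± 0.21 (adjusted p = 0.82). Among 14 elastic fiber and leucine-rich proteoglycan genes, 6 rose and 2 fell (median 0.71), or 8 and 5 (median 0.31) against day 0 replicates 2 and 3 alone and 11 and 2 (median 1.30) against replicates 1 and 4 alone. Bgn, biglycan, was measured at 823, 699, 714 and 518 CPM on day 0 and 2284, 2228, 2238 and 2109.5 CPM on day 7 (log2 fold change 1.69 ± 0.13 (SE), adjusted p = 1.4e-05). Eln, elastin, was measured at 149, 155, 156 and 74.2 CPM on day 0 and 246, 243, 253 and 260.2 CPM on day 7 (log2 fold change 0.91 ± 0.21 (SE), adjusted p = 0.0069). Fmod, fibromodulin, which tightens collagen fibrils, was measured at 57.5, 56.7, 51.7 and 68.9 CPM on day 0 and 28, 31.7, 27.3 and 22.8 CPM on day 7 (log2 fold change -1.10 ± 0.12 (SE), adjusted p = 8.5e-05). Biglycan and elastin were higher and fibromodulin lower in every day 7 library, and Fbln5, an assembly protein of elastic fibers, rose with elastin (log2 fold change 0.72 ± 0.12 (SE), adjusted p = 0.0015).

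Most matrix protease genes rose as well. Of 23 protease and inhibitor genes, 15 rose and 2 fell (median 1.47), or 17 and 4 (median 1.18) against day 0 replicates 2 and 3 alone and 19 and 2 (median 1.54) against replicates 1 and 4 alone, and 4 fell without day 0 replicate 4. Mmp10, stromelysin 2 of migrating keratinocytes and macrophages, was measured at 0.436, 0.0508, 0.182 and 0.136 CPM on day 0 and 4.23, 4.36, 3.51 and 5.12 CPM on day 7. Mmp3, stromelysin 1, was measured at 80.3, 141, 132 and 58.9 CPM on day 0 and 194, 193, 204 and 216 CPM on day 7 (log2 fold change 0.97 ± 0.24 (SE), adjusted p = 0.012). Mmp13, a collagenase, was measured at 6.00, 0.89, 0.909 and 4.99 CPM on day 0 and 44.8, 49.6, 41.4 and 50.1 CPM on day 7 (log2 fold change 3.86 ± 0.56 (SE), adjusted p = 0.00054). The day 7 libraries lay above day 0 in each case. Inhibitors moved in opposite directions, with Timp1 higher (log2 fold change 2.74 ± 0.40 (SE), adjusted p = 0.00061) and Timp4 lower (log2 fold change -1.42 ± 0.33 (SE), adjusted p = 0.0084). Mmp2, gelatinase A, was at 0.62 ± 0.27 (adjusted p = 0.095).

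Fibroblast markers and contractile genes were divided. Of 14 fibroblast genes, 5 rose and 1 fell (median 0.29). The counts were 5 and 6 (median -0.02) against day 0 replicates 2 and 3 alone and 11 and 1 (median 0.76) against replicates 1 and 4 alone. Pdgfra, the platelet-derived growth factor receptor of fibroblasts, was measured at 124, 183, 176 and 83.1 CPM on day 0 and 264, 261, 248 and 230.3 CPM on day 7 (log2 fold change 0.83 ± 0.22 (SE), adjusted p = 0.014). Dlk1, a marker of fetal and reticular fibroblasts, was measured at 3.72, 1.14, 0.935 and 0.764 CPM on day 0 and 11.8, 12.5, 13.7 and 14.5 CPM on day 7 (log2 fold change 3.00 ± 0.45 (SE), adjusted p = 0.00067). Both were higher in all day 7 libraries. Pi16 (-0.54 ± 0.35, adjusted p = 0.25) and Clec3b (-0.82 ± 0.35, adjusted p = 0.091), markers of adventitial fibroblasts, did not pass. Of 15 myofibroblast and contractile genes, 5 rose and 5 fell (median 0.26), or 9 and 4 (median 0.45) against day 0 replicates 2 and 3 alone and 5 and 7 (median 0.02) against replicates 1 and 4 alone. Lrrc15, a surface protein of activated fibroblasts, was measured at 76.7, 18.6, 22.8 and 25.2 CPM on day 0 and 465, 464, 462 and 420.3 CPM on day 7 (log2 fold change 3.66 ± 0.44 (SE), adjusted p = 0.00017). Cdh11, the cadherin that joins myofibroblasts, was measured at 28.3, 29.4, 27.5 and 23.2 CPM on day 0 and 211, 203, 201 and 179 CPM on day 7 (log2 fold change 2.87 ± 0.09 (SE), adjusted p = 4.5e-07). Both exceeded day 0 in every day 7 library. Acta2, smooth muscle actin, was measured at 431, 291, 292 and 525 CPM on day 0 and 467, 485, 494 and 491 CPM on day 7 (log2 fold change 0.33 ± 0.18, adjusted p = 0.17), and Tagln, its binding protein transgelin, was at -0.07 ± 0.20 (adjusted p = 0.81). The day 7 levels of both were above day 0 replicates 2 and 3 and within the range of day 0. Tpm2, a tropomyosin of slow muscle and smooth muscle, fell (log2 fold change -2.13 ± 0.17 (SE), adjusted p = 1.6e-05), beside a median of -2.45 in the skeletal muscle list described below.

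Growth factors moved singly. Of 25 ligand and receptor genes, 10 rose and 3 fell (median 0.22), or 13 and 7 (median 0.24) against day 0 replicates 2 and 3 alone and 11 and 4 (median 0.32) against replicates 1 and 4 alone. Inhba, the subunit of activin A, was measured at 4.13, 3.84, 4.85 and 5.26 CPM on day 0 and 26.4, 29.2, 23.1 and 31.4 CPM on day 7 (log2 fold change 2.61 ± 0.14 (SE), adjusted p = 2.4e-06). Tgfb1, the fibrogenic transforming growth factor, was measured at 70.7, 56, 55.1 and 64.5 CPM on day 0 and 93.3, 92.6, 102 and 82.3 CPM on day 7 (log2 fold change 0.59 ± 0.10 (SE), adjusted p = 0.0013). Egf, epidermal growth factor, was measured at 13.7, 10.9, 11.4 and 21.7 CPM on day 0 and 3.16, 3.89, 3.39 and 3.32 CPM on day 7 (log2 fold change -2.07 ± 0.22 (SE), adjusted p = 9e-05). Activin and Tgfb1 were higher and Egf lower in every day 7 library, and Tgfb2 was at -0.11 ± 0.17 (adjusted p = 0.66).

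Most genes of sprouting rose. Of 13 tip and sprouting genes, 9 rose and 0 fell (median 0.97), and of 14 general endothelial genes 8 rose and 2 fell (median 0.31), with 6 or 7 increases when any 1 day 7 library was left out. Aplnr, the apelin receptor, was measured at 16.1, 30.7, 30.4 and 16.5 CPM on day 0 and 105, 108, 103 and 108 CPM on day 7 (log2 fold change 2.18 ± 0.22 (SE), adjusted p = 6.1e-05). Its ligand Apln, released by tip cells, was measured at 10.7, 5.24, 4.23 and 10.4 CPM on day 0 and 22.1, 21.9, 21.5 and 24.9 CPM on day 7 (log2 fold change 1.56 ± 0.28 (SE), adjusted p = 0.002). Esm1, a tip cell proteoglycan, was measured at 0.59, 0.483, 0.286 and 0.518 CPM on day 0 and 2.52, 3.44, 3.04 and 2.83 CPM on day 7 (log2 fold change 2.65 ± 0.25 (SE), adjusted p = 4e-05). All 3 were higher in each day 7 library. Pecam1, the pan-endothelial adhesion molecule, was measured at 200.2, 219, 196 and 174 CPM on day 0 and 233, 241, 227 and 232 CPM on day 7 (log2 fold change 0.24 ± 0.08 (SE), adjusted p = 0.032) and did not pass without day 7 replicate 1, 2, 3 or 4 (highest adjusted p = 0.084). Cdh5, the endothelial cadherin, rose (log2 fold change 0.74 ± 0.16 (SE), adjusted p = 0.0056), Cldn5, a tight junction protein, fell (log2 fold change -0.46 ± 0.12 (SE), adjusted p = 0.013), and Pgf, placental growth factor, was at -0.21 ± 0.29 (adjusted p = 0.59).

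Of 10 pericyte and smooth muscle genes, 2 rose and 3 fell (median -0.01), or 4 and 3 (median -0.03) against day 0 replicates 2 and 3 alone and 2 and 4 (median -0.15) against replicates 1 and 4 alone. Rgs5, a pericyte signaling regulator, was measured at 185, 194, 194 and 205 CPM on day 0 and 355, 373, 336 and 374 CPM on day 7 (log2 fold change 0.89 ± 0.07 (SE), adjusted p = 1.1e-05). Des, desmin, which skeletal muscle also makes, was measured at 1373, 668, 662 and 1442 CPM on day 0 and 235, 237, 254 and 258 CPM on day 7 (log2 fold change -2.08 ± 0.27 (SE), adjusted p = 0.00026). Rgs5 was higher and desmin lower in each day 7 library, and Notch3 was at -0.09 ± 0.08 (adjusted p = 0.39). Most lymphatic genes fell. Of 8, 1 rose and 6 fell (median -0.94). Prox1, the transcription factor of lymphatic identity, was measured at 8.41, 9.02, 10.2 and 7.28 CPM on day 0 and 6.43, 6.17, 6.09 and 4.6 CPM on day 7 (log2 fold change -0.58 ± 0.15 (SE), adjusted p = 0.012). Reln, reelin of collecting vessels, was measured at 42.6, 48.3, 43.3 and 41.9 CPM on day 0 and 18.3, 17.6, 19.1 and 12.9 CPM on day 7 (log2 fold change -1.37 ± 0.12 (SE), adjusted p = 2.5e-05). Pdpn, podoplanin, which fibroblasts and macrophages also make, was measured at 64, 56, 53.9 and 41 CPM on day 0 and 82.5, 85.2, 88.9 and 91.7 CPM on day 7 (log2 fold change 0.70 ± 0.12 (SE), adjusted p = 0.0015). Prox1 and Reln were lower in every day 7 library and Pdpn was higher, while the receptor gene Flt4 was at -0.26 ± 0.17 (adjusted p = 0.27).

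Wound-edge keratinocyte genes were far above the start. Of 18 wound-edge genes, 15 rose and 2 fell (median 3.02, or 2.85 with a length term), with a summed level of 1260.4 to 1571 CPM on day 0 and 2287 to 2882 CPM on day 7. Krt6b, a keratin of activated keratinocytes, was measured at 23.7, 0.585, 0.909 and 7.5 CPM on day 0 and 342, 459, 352 and 415 CPM on day 7 (log2 fold change 5.58 ± 0.99 (SE), adjusted p = 0.0018). Krt16, its type I partner, was measured at 56.1, 10.5, 11.3 and 21.4 CPM on day 0 and 305, 371, 291 and 388 CPM on day 7 (log2 fold change 3.77 ± 0.52 (SE), adjusted p = 0.00043). Sprr1b, a precursor of the cornified envelope induced by injury, was measured at 5.38, 0.483, 1.4 and 3.25 CPM on day 0 and 80.9, 112, 93.7 and 106 CPM on day 7 (log2 fold change 5.22 ± 0.54 (SE), adjusted p = 6.9e-05). In each case day 0 replicates 2 and 3 were lowest, 1 and 4 were intermediate and the day 7 libraries were highest. Krt6a rose (log2 fold change 2.43 ± 0.53 (SE), adjusted p = 0.0057) and Lamb3, a laminin 332 chain of the basement membrane, fell (log2 fold change -1.0 ± 0.20 (SE), adjusted p = 0.0033).

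Most genes of resting epidermis fell. Of 14 basal and spinous genes, 1 rose and 11 fell (median -0.90). Krt5, the basal type II keratin, was measured at 2662, 1367, 1466 and 3096 CPM on day 0 and 1002, 1082, 1083 and 1124 CPM on day 7 (log2 fold change -1.0 ± 0.25 (SE), adjusted p = 0.011). Krt15, a keratin of basal and bulge cells, was measured at 1099, 946, 959 and 1420.2 CPM on day 0 and 248, 259, 263 and 265 CPM on day 7 (log2 fold change -2.10 ± 0.13 (SE), adjusted p = 4.7e-06). Krt1, the spinous type II keratin, was measured at 548, 427, 459 and 581 CPM on day 0 and 749.8, 819, 843 and 985 CPM on day 7 (log2 fold change 0.75 ± 0.12 (SE), adjusted p = 0.0011). Krt5 and Krt15 were lower and Krt1 higher in all day 7 libraries. Krt14, which pairs with Krt5, was at 0.03 ± 0.29 (adjusted p = 0.95), above day 0 replicates 2 and 3 and below replicates 1 and 4. Of 20 cornified envelope and barrier genes, 7 rose and 4 fell (median 0.04), or 7 and 8 (median -0.06) against day 0 replicates 2 and 3 alone and 10 and 3 (median 0.41) against replicates 1 and 4 alone. Flg, filaggrin, was measured at 40.1, 20.7, 20.1 and 46.7 CPM on day 0 and 131, 158, 136 and 87.8 CPM on day 7 (log2 fold change 2.01 ± 0.30 (SE), adjusted p = 0.00068). Lce3d, a late envelope protein induced by barrier damage, was measured at 0.308, 0.153, 0.104 and 0.327 CPM on day 0 and 4.18, 6.19, 5.35 and 6.87 CPM on day 7. Lor, loricrin, the main envelope protein of resting epidermis, was measured at 384, 286, 344 and 408 CPM on day 0 and 205, 222, 233 and 272 CPM on day 7 (log2 fold change -0.61 ± 0.13 (SE), adjusted p = 0.0041). Filaggrin and Lce3d were higher and loricrin lower in each day 7 library, and Lce1m, a late envelope protein of normal skin, fell as well (log2 fold change -0.96 ± 0.10 (SE), adjusted p = 5.9e-05).

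The result for hair follicle genes depended on a single library of the start. Of 26 tested, 3 rose and 1 fell (median 0.60), or 23 and 1 (median 1.26) against day 0 replicates 2 and 3 alone and 2 and 2 (median 0.08) against replicates 1 and 4 alone, and without day 0 replicate 1 23 rose and 1 fell (median 1.43). Krt25, an inner root sheath keratin, was measured at 408, 119, 106 and 51.9 CPM on day 0 and 184, 258, 236 and 254 CPM on day 7 (log2 fold change 0.44 ± 0.52, adjusted p = 0.53). Krt27, another of these keratins, was measured at 236, 85.6, 87.3 and 25.3 CPM on day 0 and 162, 213, 181 and 224 CPM on day 7 (0.85 ± 0.51, adjusted p = 0.22). Day 0 replicate 1 was above the day 7 libraries and the other day 0 libraries were below them. Shh, a signal of growing follicles, was measured at 1.08, 0.229, 0.13 and 0.436 CPM on day 0 and 1.74, 1.98, 1.55 and 1.99 CPM on day 7. Lhx2, a stem cell factor of the bulge, was lower in all day 7 libraries (log2 fold change -0.57 ± 0.10 (SE), adjusted p = 0.0018). Keratin-associated proteins, which pack the hair shaft, depended on it too. Of 52 tested, 2 rose and 0 fell (median 0.48), or 44 and 0 (median 1.44) against day 0 replicates 2 and 3 alone and 2 and 1 (median -0.05) against replicates 1 and 4 alone, 34 rose without day 0 replicate 1 (median 1.88) and 5 rose without replicate 4 (median 0.16). Krtap4-13 was measured at 1.21, 0.814, 0.286 and 0.109 CPM on day 0 and 2.86, 4.31, 1.79 and 2.44 CPM on day 7. Krtap5-2 and Krtap5-3, which were not tested, reached 401 and 160 counts in a day 0 library and 3 and 1 counts on day 7.

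Most sebaceous genes fell. Of 14, 2 rose and 10 fell (median -1.35), or 2 and 10 (median -1.55) against day 0 replicates 2 and 3 alone and 4 and 10 (median -1.04) against replicates 1 and 4 alone. The summed level of the list went the other way, with 5616 to 7564 CPM on day 0 and 8405 to 9156 CPM on day 7, and most of it was that of Scd1, a fatty acid desaturase that other cells also make, which rose (log2 fold change 0.73 ± 0.12 (SE), adjusted p = 0.00099). Mc5r, the melanocortin receptor of sebocytes, was measured at 18.6, 21.6, 16.9 and 16.7 CPM on day 0 and 5.65, 4.21, 3.49 and 4.46 CPM on day 7 (log2 fold change -2.05 ± 0.16 (SE), adjusted p = 1.3e-05). Awat1, a wax ester synthase, was measured at 34.2, 83.5, 77.8 and 39.1 CPM on day 0 and 24.7, 25.3, 26.1 and 23.7 CPM on day 7 (log2 fold change -1.23 ± 0.27 (SE), adjusted p = 0.006). Both were lower in every day 7 library. Cidea rose (log2 fold change 1.65 ± 0.13 (SE), adjusted p = 1.4e-05), a lipid droplet protein that brown fat also makes. Of 7 melanocyte genes, 0 rose and 0 fell by edgeR's test, and 0 had an unadjusted p under 0.05 (median -0.34). The counts were 3 and 1 (median 0.71) against day 0 replicates 2 and 3 alone and 0 and 3 (median -0.71) against replicates 1 and 4 alone. Without day 0 replicate 1 the median was 0.26. Dct, a pigment enzyme, was measured at 34.1, 17.2, 15.5 and 25.7 CPM on day 0 and 17.8, 18.8, 17.3 and 19 CPM on day 7 (-0.34 ± 0.22, adjusted p = 0.25), Tyrp1 was at -0.63 ± 0.46 (adjusted p = 0.31) and Tyr at 0.02 ± 0.57 (adjusted p = 0.99), with day 0 replicate 1 the highest of the 8 libraries for each.

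Most genes of brown fat rose, while those of white fat were divided. Of 8 brown adipocyte genes, 5 rose and 1 fell, and the median was 1.02, or 0.53 with a length term. Ucp1 is given above. Dio2, which activates thyroid hormone in brown fat, was measured at 3.54, 3.00, 3.27 and 4.31 CPM on day 0 and 19.5, 23.1, 18.9 and 21.3 CPM on day 7 (log2 fold change 2.55 ± 0.13 (SE), adjusted p = 2.3e-06). Cox8b, a respiratory subunit of brown fat and muscle, was measured at 66.3, 51.6, 50.0 and 75.7 CPM on day 0 and 116, 137, 128 and 160.4 CPM on day 7 (log2 fold change 1.15 ± 0.15 (SE), adjusted p = 0.00029). Both were higher in each day 7 library. Elovl3, a fatty acid elongase of brown fat and sebaceous glands, was measured at 67, 109, 105 and 74.8 CPM on day 0 and 32.7, 29.8, 31.4 and 35.2 CPM on day 7 (log2 fold change -1.46 ± 0.16 (SE), adjusted p = 8.5e-05). It was lower in each day 7 library, as most sebaceous genes were. Of 13 white adipocyte genes, 6 rose and 3 fell (median 0.17). Fabp4, a fatty acid carrier, was measured at 933, 1058, 979 and 1324 CPM on day 0 and 2079.6, 2186, 2200.0 and 2673 CPM on day 7 (log2 fold change 1.09 ± 0.13 (SE), adjusted p = 0.00017). Cfd, adipsin, was measured at 2404, 3095, 2979 and 2857 CPM on day 0 and 1684, 1671, 1722 and 1909 CPM on day 7 (log2 fold change -0.70 ± 0.10 (SE), adjusted p = 0.00048). The carrier was higher and adipsin lower in every day 7 library, while the hormones Adipoq (0.06 ± 0.09, adjusted p = 0.61) and Lep (-0.15 ± 0.18, adjusted p = 0.53) did not pass.

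Every gene tested in the skeletal muscle and Schwann cell lists fell. All 19 sarcomere genes were lower (median -2.45), with a summed level of 29915 to 53822 CPM on day 0 and 6968 to 7354 CPM on day 7. Acta1, skeletal actin, was measured at 7985, 5289, 5372 and 8149 CPM on day 0 and 1224, 1285, 1400.2 and 1365 CPM on day 7 (log2 fold change -2.35 ± 0.17 (SE), adjusted p = 8.7e-06). Ckm, muscle creatine kinase, was measured at 4189, 2912, 2934 and 4409.5 CPM on day 0 and 595, 629, 652 and 642 CPM on day 7 (log2 fold change -2.52 ± 0.15 (SE), adjusted p = 4.4e-06). Mylpf, a fast light chain with the smallest decrease of the list, was at -2.02 ± 0.16. The day 7 libraries formed a narrow band below all day 0 libraries. Of 13 genes of muscle regeneration, 0 rose and 4 fell (median -0.76). The counts were 8 and 4 (median 1.88) against day 0 replicates 2 and 3 alone and 0 and 10 (median -1.56) against replicates 1 and 4 alone. Myh3, embryonic myosin, was measured at 23, 0.254, 0.441 and 8.43 CPM on day 0 and 6.28, 6.24, 7.26 and 6.97 CPM on day 7 (log2 fold change -0.27 ± 1.01, adjusted p = 0.86). Myod1, the myogenic transcription factor, was measured at 14.2, 5.06, 4.36 and 9.57 CPM on day 0 and 1.27, 1.54, 1.89 and 1.75 CPM on day 7 (log2 fold change -2.36 ± 0.37 (SE), adjusted p = 0.00093). Embryonic myosin on day 7 lay between the 2 day 0 pairs, and Myod1 was below all of them. Myh8, perinatal myosin, was at 0.59 ± 0.43 (adjusted p = 0.31).

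All 13 Schwann cell and myelin genes were lower as well (median -1.74). Mbp, myelin basic protein, was measured at 209, 227, 215 and 310.2 CPM on day 0 and 78.8, 73, 69.4 and 59.1 CPM on day 7 (log2 fold change -1.78 ± 0.14 (SE), adjusted p = 1.6e-05). No day 7 library was within the range of day 0. Egr2, the regulator of myelination and an immediate-early gene, had the smallest decrease (log2 fold change -0.52 ± 0.12 (SE), adjusted p = 0.0088).

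Cell division genes rose together. All 22 mitosis genes were higher (median 0.94), 14 and 13 of them without day 7 replicate 1 or 3, respectively, and 20 against day 0 replicates 1 and 4 alone (median 0.49). Top2a, the topoisomerase that separates chromosomes, was measured at 62.5, 28.9, 26.1 and 47.8 CPM on day 0 and 81.9, 85.9, 79.5 and 82.8 CPM on day 7 (log2 fold change 1.00 ± 0.25 (SE), adjusted p = 0.01). Bub1, a spindle checkpoint kinase, was measured at 5.38, 1.98, 2.47 and 5.07 CPM on day 0 and 11.5, 11.8, 11.1 and 13.1 CPM on day 7 (log2 fold change 1.67 ± 0.30 (SE), adjusted p = 0.0019). Mki67, the nuclear antigen of cycling cells, was measured at 105, 54.5, 53 and 92.6 CPM on day 0 and 134, 140.3, 122 and 108 CPM on day 7 (log2 fold change 0.72 ± 0.22 (SE), adjusted p = 0.027) and did not pass without day 0 replicate 2 or 3 or day 7 replicate 1, 2 or 3 (highest adjusted p = 0.072). For all 3 the day 7 libraries were above day 0, with replicates 1 and 4 of day 0 nearer to them. Aurkb, a kinase of chromosome segregation, had the smallest increase (log2 fold change 0.57 ± 0.20 (SE), adjusted p = 0.044) and did not pass without day 0 replicate 2 or 3 or day 7 replicate 1, 2, 3 or 4 (highest adjusted p = 0.098). DNA replication genes depended on the start. Of 19, 4 rose and 0 fell (median 0.41), 19 rose against day 0 replicates 2 and 3 alone (median 0.94) and 6 against replicates 1 and 4 alone (median 0.10). With single libraries left out, from 2 (without day 0 replicate 2, day 7 replicate 1 or day 7 replicate 2) to 11 (without day 0 replicate 4) rose, and 10 rose without day 0 replicate 1. Mcm2, a subunit of the replicative helicase, was measured at 33, 16.7, 18.2 and 31.4 CPM on day 0 and 30.3, 31.6, 33.4 and 23.2 CPM on day 7 (0.25 ± 0.23, adjusted p = 0.41). The other subunits Mcm3 (0.38 ± 0.22, adjusted p = 0.19) and Mcm7 (0.15 ± 0.14, adjusted p = 0.41) and Ccne1, cyclin E1 (1.15 ± 0.45, adjusted p = 0.067), did not pass either.

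Promoters of cell cycle genes of the late phases are known for 2 short elements, the CCAAT box bound by NF-Y and the cell cycle homology region (CHR) with the letters TTTGAA. Windows of 250 bases before the start, from RefSeq on GRCm38.p6, were at hand for 13223 of 16863 genes tested, among them 17 of 22 mitosis genes, and both strands were searched. CCAAT stood in 15 of 17 mitosis windows (88.2%), in 10 of 15 DNA replication windows (66.7%) and in 35.5% of all windows. TTTGAA stood in 8 of 17 (47.1%), in 2 of 15 (13.3%) and in 11.6% of all. These elements share at most 1 base, and a match describes letters only. Of the 2 genes shown because their promoters hold both elements close to the start, Cdk1, the mitotic kinase, was measured at 18, 7.5, 7.66 and 16.2 CPM on day 0 and 24.9, 31.4, 28.7 and 33.6 CPM on day 7 (log2 fold change 1.26 ± 0.29 (SE), adjusted p = 0.0068). Cdc20, an activator of the anaphase-promoting complex, was measured at 17.1, 8.95, 8.31 and 15.4 CPM on day 0 and 20.4, 20.5, 20.4 and 21.3 CPM on day 7 (log2 fold change 0.73 ± 0.22 (SE), adjusted p = 0.026). It did not pass without day 0 replicate 2 or day 7 replicate 1, 2, 3 or 4 (highest adjusted p = 0.062). Their last 120 bases before the start (Cdk1 chr10:69352913-69353032 and Cdc20 chr4:118437344-118437463, both on the minus strand) read as follows, 5′ to 3′, with CCAAT or ATTGG and TTTGAA or TTCAAA in capitals.
Cdk1: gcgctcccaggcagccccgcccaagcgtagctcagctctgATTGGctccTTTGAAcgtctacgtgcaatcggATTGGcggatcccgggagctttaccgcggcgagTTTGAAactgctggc
Cdc20: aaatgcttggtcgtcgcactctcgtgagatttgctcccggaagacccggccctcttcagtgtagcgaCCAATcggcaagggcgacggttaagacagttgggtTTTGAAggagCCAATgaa

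Genes of cholesterol synthesis were lower along nearly the whole pathway. Of 20 genes, 0 rose and 19 fell (median -0.86), and the same number fell with any single library left out. Hmgcs1, which makes the precursor of mevalonate, was measured at 285, 369, 369 and 316 CPM on day 0 and 183, 178, 173 and 195 CPM on day 7 (log2 fold change -0.88 ± 0.10 (SE), adjusted p = 9.8e-05). Idi1, an isomerase of isoprene units, was measured at 34.5, 53.1, 50.3 and 45.1 CPM on day 0 and 22, 22.9, 20.8 and 21.6 CPM on day 7 (log2 fold change -1.07 ± 0.12 (SE), adjusted p = 0.00014). All day 7 libraries were below all day 0 libraries for both genes. Sc5d, a desaturase near the end, was the exception, measured at 39.1, 70.1, 71.8 and 41 CPM on day 0 and 49.4, 47.3, 48.5 and 43.8 CPM on day 7 (-0.23 ± 0.20, adjusted p = 0.38). Genes of the pathway are known targets of SREBP-2, which binds sterol response elements with NF-Y nearby. CCAAT stood in 13 of 14 windows of the list (92.9%), and the classical element TCACNCCAC in 1 of 14 (7.14%), that of Hmgcs1, against 0.998% of all windows and 1 of 9 windows of the provisional matrix list (11.1%). The 200 bases before the start of Hmgcs1 (chr13:119690151-119690350, plus strand) and the 120 bases before that of Idi1 (chr13:8885486-8885605, plus strand) are shown for the spacing of these letters, 5′ to 3′, with matches on either strand in capitals.
Hmgcs1: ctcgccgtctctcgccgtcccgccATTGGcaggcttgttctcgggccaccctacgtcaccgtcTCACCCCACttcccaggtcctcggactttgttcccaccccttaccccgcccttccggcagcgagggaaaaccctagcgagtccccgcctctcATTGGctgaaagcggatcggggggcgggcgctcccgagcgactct
Idi1: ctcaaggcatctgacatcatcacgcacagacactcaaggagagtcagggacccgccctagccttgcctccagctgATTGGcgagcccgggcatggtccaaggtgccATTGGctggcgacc

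Fatty acid and triglyceride synthesis did not share this direction, with 3 genes higher and 3 lower of 15 (median 0.05), or 5 and 4 (median 0.06) against day 0 replicates 2 and 3 alone and 7 and 5 (median 0.11) against replicates 1 and 4 alone, 2 and 3 without day 0 replicate 1, and 5 and 2 without day 0 replicate 2. Acaca, acetyl-CoA carboxylase, was measured at 150.0, 306, 286 and 156 CPM on day 0 and 482, 500.2, 496 and 401 CPM on day 7 (log2 fold change 1.07 ± 0.24 (SE), adjusted p = 0.006). Elovl5, an elongase of polyunsaturated fatty acids, was measured at 421, 477, 446 and 485 CPM on day 0 and 177, 169, 164 and 158 CPM on day 7 (log2 fold change -1.45 ± 0.07 (SE), adjusted p = 1.9e-06). The carboxylase was higher and the elongase lower in all day 7 libraries, and Acly, which supplies acetyl-CoA, was at 0.32 ± 0.16 (adjusted p = 0.15). Of 22 glycolysis and hypoxia genes, 5 rose and 6 fell (median -0.07), or 8 and 8 (median 0.09) against day 0 replicates 2 and 3 alone and 3 and 9 (median -0.19) against replicates 1 and 4 alone, and 3 rose without day 7 replicate 2. Pfkl, the liver-type phosphofructokinase, was measured at 42.7, 41.6, 43.7 and 37 CPM on day 0 and 89, 93, 99 and 103 CPM on day 7 (log2 fold change 1.22 ± 0.07 (SE), adjusted p = 4.2e-06). Pfkm, the muscle-type enzyme, was measured at 715, 522, 511 and 899 CPM on day 0 and 139, 144, 143 and 151 CPM on day 7 (log2 fold change -2.20 ± 0.18 (SE), adjusted p = 1.6e-05). The liver type rose while the muscle type fell with the sarcomere genes. Slc2a1, the glucose transporter GLUT1, rose slightly (log2 fold change 0.36 ± 0.10 (SE), adjusted p = 0.018) and did not pass without day 7 replicate 2 (highest adjusted p = 0.053), and Hk1 was at -0.07 ± 0.06 (adjusted p = 0.36).

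Ribosomal protein transcripts were slightly and widely lower. Of 81, 1 rose and 68 fell (median -0.31), or 0 and 74 with a length term (median -0.49). Rpl10 was measured at 909, 959, 989 and 876 CPM on day 0 and 722, 718, 826 and 754 CPM on day 7 (log2 fold change -0.31 ± 0.08 (SE), adjusted p = 0.011). Rpl3l, a muscle-specific paralog and the largest decrease, was measured at 93.1, 65.9, 70.4 and 118 CPM on day 0 and 16.5, 17.1, 16.6 and 17.6 CPM on day 7 (log2 fold change -2.36 ± 0.18 (SE), adjusted p = 1.1e-05). The muscle paralog thus fell with the other muscle genes, and Rpl39l was the increase (log2 fold change 0.27 ± 0.10 (SE), adjusted p = 0.045) and did not pass without day 0 replicate 1 or day 7 replicate 1, 2, 3 or 4 (highest adjusted p = 0.11). For respiratory chain genes the direction depended on the length term. Of 86, 25 rose and 6 fell (median 0.14), or 51 and 5 (median 0.27) against day 0 replicates 2 and 3 alone and 18 and 9 (median 0.07) against replicates 1 and 4 alone, but with a length term 17 rose and 23 fell (median -0.07), and 38 rose without day 0 replicate 4. Cox6a2, the muscle form of a cytochrome oxidase subunit, was measured at 119, 90.1, 92.3 and 159 CPM on day 0 and 21.9, 21.6, 26.3 and 22.8 CPM on day 7 (log2 fold change -2.31 ± 0.18 (SE), adjusted p = 1.4e-05), and Atp5a1, a catalytic core subunit of ATP synthase, was at 0.14 ± 0.10 (adjusted p = 0.32). Of 17 genes of folding and secretion in the endoplasmic reticulum, 5 rose and 1 fell (median 0.25, or 0.05 with a length term), or 7 and 3 (median 0.08) against day 0 replicates 2 and 3 alone and 11 and 1 (median 0.41) against replicates 1 and 4 alone, and 8 rose without day 0 replicate 2. Pdia4, a disulfide isomerase, was measured at 92.4, 99, 95.8 and 74.4 CPM on day 0 and 145, 149, 148 and 149 CPM on day 7 (log2 fold change 0.71 ± 0.09 (SE), adjusted p = 0.00022). Herpud1, of the degradation pathway, fell (log2 fold change -0.57 ± 0.12 (SE), adjusted p = 0.0044). The chaperone Hspa5 was at 0.31 ± 0.13 (adjusted p = 0.084).

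Immediate-early genes gave 4 increases and 3 decreases of 16 (median 0.00), or 9 and 3 (median 0.23) against day 0 replicates 2 and 3 alone and 4 and 7 (median -0.10) against replicates 1 and 4 alone, and 5 decreases without day 0 replicate 3. Fos, a subunit of AP-1, was measured at 28.8, 22.6, 22.1 and 29.6 CPM on day 0 and 37.2, 38.9, 38.1 and 38.2 CPM on day 7 (log2 fold change 0.56 ± 0.10 (SE), adjusted p = 0.0022). Klf4, a differentiation factor of epidermis, was measured at 228, 266, 265 and 196 CPM on day 0 and 143, 149, 140.4 and 126 CPM on day 7 (log2 fold change -0.77 ± 0.11 (SE), adjusted p = 0.00041). Both groups of libraries were apart for each gene, in opposite directions, and Ier3 rose (log2 fold change 0.95 ± 0.11 (SE), adjusted p = 0.00015). Of 14 clock genes, 0 rose and 2 fell (median -0.63), with counts of 8 and 4 (median 0.54) against day 0 replicates 2 and 3 alone and 2 and 11 (median -0.92) against replicates 1 and 4 alone. Cry2, a repressor of the clock and 1 of the decreases, was at -0.82 ± 0.18 (adjusted p = 0.005).

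Erythroid transcripts were higher. All 7 genes rose (median 2.58, or 2.28 with a length term). Hba-a1, an alpha globin, was measured at 41, 45.9, 47 and 30.8 CPM on day 0 and 255, 206, 260.2 and 260.1 CPM on day 7 (log2 fold change 2.58 ± 0.14 (SE), adjusted p = 3e-06). Alas2, the erythroid enzyme of heme synthesis, was measured at 7.92, 7.45, 8.07 and 5.15 CPM on day 0 and 46.9, 37.5, 46.6 and 41 CPM on day 7 (log2 fold change 2.59 ± 0.15 (SE), adjusted p = 3.3e-06). All day 7 libraries were several-fold above day 0 for both.

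Mlkl, the executioner of necroptosis and the gene the study centers on, rose moderately. It was measured at 14.4, 9.94, 11.5 and 12.3 CPM on day 0 and 19.1, 19.7, 19.4 and 21.6 CPM on day 7 (log2 fold change 0.73 ± 0.12 (SE), adjusted p = 0.00098), and each day 7 library was above each day 0 library. Of 13 necroptosis and gasdermin genes, 7 rose and 1 fell (median 0.32). Ripk3, the kinase that activates MLKL, was measured at 13.8, 7.98, 6.96 and 9.68 CPM on day 0 and 23, 22.8, 23.1 and 20.4 CPM on day 7 (log2 fold change 1.22 ± 0.19 (SE), adjusted p = 0.0009). Nlrp3, the sensor of the inflammasome, was measured at 1.33, 1.45, 1.97 and 2.02 CPM on day 0 and 19.5, 22.2, 17.5 and 22.5 CPM on day 7 (log2 fold change 3.59 ± 0.17 (SE), adjusted p = 1.5e-06). Ripk1, the partner of Ripk3, was measured at 48.9, 54.9, 54.5 and 44.8 CPM on day 0 and 64.3, 66.4, 63.1 and 59.9 CPM on day 7 (log2 fold change 0.32 ± 0.08 (SE), adjusted p = 0.0094). The increases in these genes were present in all day 7 libraries, and myeloid genes rose in the same libraries. The part of cell numbers in the Mlkl difference was not tested. Pycard, the inflammasome adaptor, fell slightly (log2 fold change -0.24 ± 0.06 (SE), adjusted p = 0.012).

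Day 7 was also compared with the mean of days 5 and 10, a contrast that uses no day 0 library but shares the day 7 libraries with the comparison above. CPM in this contrast are scaled over its own 12 libraries. Of 17164 genes tested, 2189 (12.8%) were higher and 1775 (10.3%) were lower. With a length term 2137 were higher and 3828 lower, so that the share of higher genes among those called went from 55.2% to 35.8%. Day 5 replicate 4 had the steepest length slope of the series (-0.140), and without it 2657 genes were higher and 2154 lower. The day 7 libraries lay above all 8 libraries of days 5 and 10 for 4.14% of genes and below all for 2.16%. Many hair genes were at or near 0 CPM on days 5 and 10 and passed the filter on low counts through day 7, which fixed their direction. Levels of hair genes are therefore given as a description, with no count of calls, fold change or p. Krt86, a hair shaft keratin, was measured at 0.23, 0.563, 0.103 and 0.345 CPM on day 5, 50.5, 66.8, 54.6 and 65.7 CPM on day 7 and 0.0998, 0.123, 0.151 and 0.123 CPM on day 10. Krtap2-4, a hair shaft protein, was measured at 0.0511, 0.0256, 0 and 0 CPM on day 5, 18.3, 23.1, 13.7 and 20.6 CPM on day 7 and 0.0249, 0.0245, 0 and 0.0245 CPM on day 10. Both were under 1 CPM in every library of days 5 and 10. The follicle list had a mean log2 CPM of 5.02 ± 0.20 on day 7 (SD over 4 libraries) compared with -0.61 ± 0.18 for day 5 and 2.41 ± 0.09 for day 10. It then reached 7.18 ± 0.18 by day 12 and 7.59 ± 0.14 by day 14, and it stood at 4.06 ± 1.04 at the start. Day 7 was thus above both of its neighbors and below days 12 and 14. Above the mean of days 5 and 10 were 10 of 10 MHC class II and Langerhans cell genes (median 0.76), 10 of 12 T and NK cell genes (0.67), 16 of 20 cornified envelope genes (0.42) and 12 of 14 collagens (0.27). On days 5, 7 and 10 the mean log2 CPM was 5.88, 6.11 and 4.89 for the MHC class II list and 9.39, 10.07 and 10.14 for the collagen list, so that the first was highest on day 7 of these days, while the collagen list was above day 5 only.

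Below the mean of days 5 and 10 were 18 of 19 sarcomere genes (median -0.54), 11 of 13 muscle regeneration genes (-0.82), 15 of 22 glycolysis genes (-0.28), 13 of 22 cytokine and chemokine genes (-0.32) and 7 of 13 sprouting genes (-0.22). The mean log2 CPM on days 5, 7 and 10 was 7.97, 8.01 and 9.10 for sarcomere genes, 7.28, 6.65 and 6.53 for glycolysis genes and 6.00, 4.39 and 3.62 for cytokine and chemokine genes. These lists lay between the neighboring days, with sarcomere genes near their day 5 level, whereas the regeneration list (1.58, 1.36 and 2.88) and the sprouting list (5.77, 5.51 and 5.68) were lowest on day 7. Nos2, the inducible nitric oxide synthase, was measured at 78.4, 79.7, 76.5 and 72.9 CPM on day 5, 8.65, 7.12, 8.09 and 6.87 CPM on day 7 and 11, 9.95, 12 and 9.56 CPM on day 10 (log2 fold change -1.90 ± 0.08 (SE), adjusted p = 3.7e-13). It had already dropped by day 7 from a high on day 5. Myh3 was measured at 12.7, 14, 13.3 and 12.5 CPM on day 5, 6.36, 6.29, 7.37 and 7.05 CPM on day 7 and 24.3, 23.1, 25.1 and 25.5 CPM on day 10 (log2 fold change -1.41 ± 0.07 (SE), adjusted p = 1.2e-11), with the lowest levels on day 7 among these days. Over the series, the neutrophil list had its highest mean on day 3 (6.16 ± 0.10) and stood at 3.56 ± 0.09 on day 7 against 0.36 ± 0.36 on day 0. The collagen list stood at 10.07 ± 0.03 on day 7 and 10.14 ± 0.09 on day 10, its highest means.

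**Figure D5:**
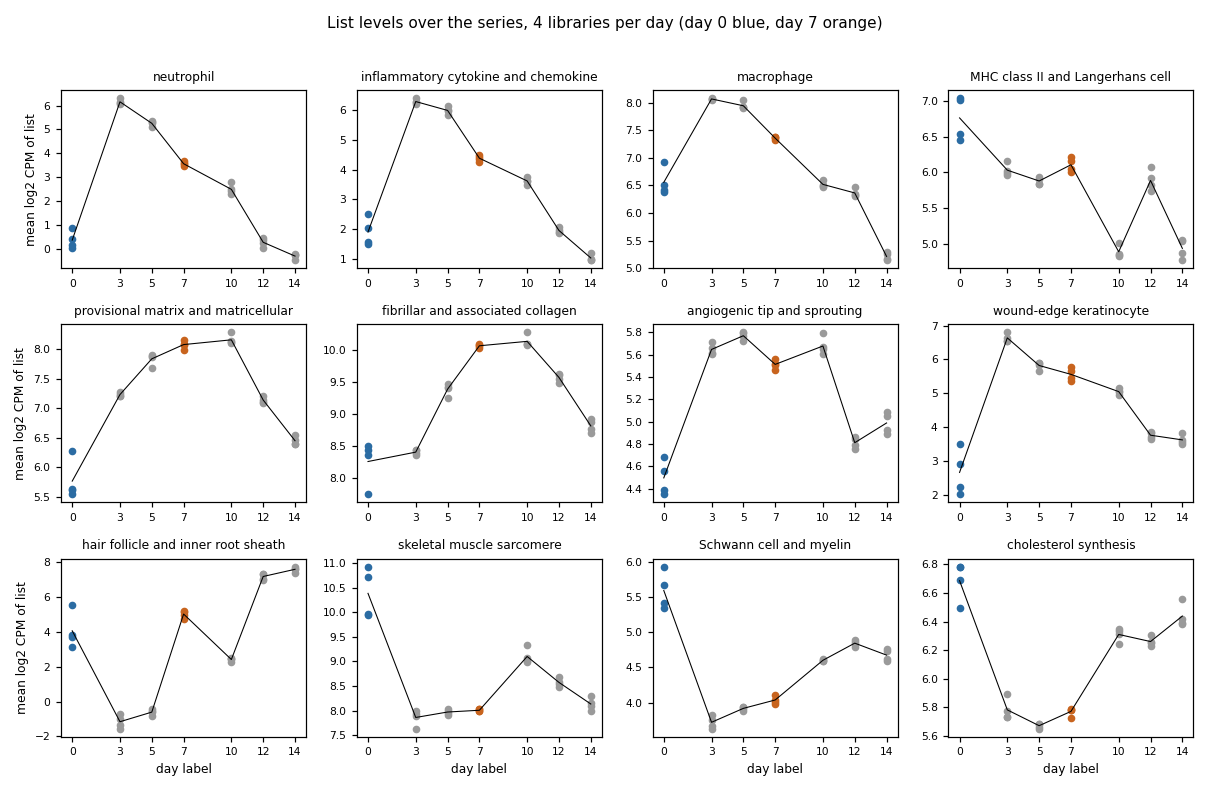
Mean log2 CPM of 12 gene lists (vertical axis) in all 28 libraries by the day given in the labels (horizontal axis), 4 points per day, with day 0 in blue, day 7 in orange and a line through the daily means. Neutrophil and inflammatory lists decline from day 3, the collagen list is highest on days 7 and 10, and the hair follicle list is at 5.02 on day 7 against -0.61 on day 5 and 2.41 on day 10, and above its day 7 level on days 12 and 14.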

How the data were processed

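RNA was extracted from whole wound sites with TRIzol. The library kit was VAHTS Universal V6. The submitters' processing notes name fastp, R 3.2.0 and the mouse build mm10. The aligner, the counter and strandedness were not given in the sources used here. For all samples the authors deposited 2 tables of values per gene, 1 of raw counts and 1 of FPKM, of which the counts were used for the tests reported and the deposited FPKM for gene lengths and for an alternative test. The ratio of counts and FPKM gave 1 length per gene.

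Samples were grouped by the day in the labels. Library sizes were scaled by TMM, genes were filtered with filterByExpr on the groups compared, and day 7 (n = 4) was tested against day 0 (n = 4) with the quasi-likelihood test of edgeR 4.0.16 in R 4.3.3 (two-sided, Benjamini-Hochberg adjustment over all 16863 genes, 6 residual degrees of freedom). A call is an adjusted p under 0.05, and the fold change limit of 1.5 on the log2 scale was taken from the methods of the paper. The contrast with the mean of days 5 and 10 was fitted on those 3 days (9 residual degrees of freedom). Levels are TMM-scaled CPM. List levels are means of log2 CPM with a prior count of 2. The length term was a spline of log2 gene length with 5 degrees of freedom per library, used as an offset. It was fitted to deviations from the mean of all libraries compared, so that it also takes up a length trend between days. DESeq2 1.42.0 and limma 3.58.1 served as alternatives. The scripts were tested on simulated counts. Promoter windows came from RefSeq (GRCm38.p6), matched by symbol.

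The comparison and the gene lists were chosen with earlier results of these data known, so that they are not independent of them. Named genes were the 10 largest increases and decreases among calls with a mean of at least 10 CPM in the higher group, no overlap, and the same call without any single library (predicted genes left out, at most 2 of a family), the first 2 and the extreme members of each list, the 5 largest each way against days 5 and 10, and Mlkl. The others (Alas2, Camp, Ccl2, Ccl7, Cd207, Cdc20, Cdh11, Cdk1, Col3a1, Col5a1, Cry2, Cxcr2, Dio2, Idi1, Krt16, Mmp13, Mzb1, Per1, Plod2, Postn, Ptgs2, Ripk3, Scd1, Sprr1b, Timp1 and Tnf) were chosen after their values were seen. List members absent from the table were not analyzed here, and a few genes that the rule names are not reported here.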

Additional observations from a re-analysis of the deposited data

Results flagged for a closer look

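In 7 of 138 groups of 4 libraries examined, 1 library lay apart from the other 3 by more than Dixon's 95% limit for 4 values, where chance alone gives about 6.9, or 1 in 20. Day 0 replicate 1 stood high in 3 lists. Its mean log2 CPM was 6.89 for macrophage genes, against 6.39 to 6.47 in the other day 0 libraries, 6.24 for provisional matrix genes, against 5.55 to 5.62, and 3.08 for melanocyte genes, against 1.07 to 1.37. Day 7 replicate 4 stood apart in 3 lists by much less. Its mean was 7.28 for macrophage genes, against 7.32 in each of the other day 7 libraries, 6.8 for collagen processing and crosslinking genes, against 6.91 to 6.93, and 4.72 for necroptosis and gasdermin genes, against 4.65 to 4.66. The log2 CPM of Lrrc30 was 0.581 in day 7 replicate 1 and 0.942 to 0.969 in the others. Day 0 replicate 1 and day 7 replicate 4 were also the libraries of these 2 days with the steepest gene length trend, whose part in these values was not tested.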

How the results depend on the processing

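Under 25 alternatives, none of the 6769 calls between day 7 and day 0 changed direction while remaining past the threshold. DESeq2 kept 98.1% of them, the length term 95%, the fits that left out 1 library between 79.3% and 90.4%, and limma on FPKM with a mean of at least 1 the fewest, 75.5%. With 1 library left out, 2429 to 3285 genes were higher and 3037 to 3723 lower, 536 to 740 and 723 to 818 of them by over 1.5 on the log2 scale, and against days 5 and 10 the counts were 1847 to 2657 and 1355 to 2154. A fit on all 28 libraries called 4633 genes higher and 4496 lower. At an adjusted p under 0.01, 1846 genes were higher and 2431 lower. Beyond 1.5 on the log2 scale, at least 10 counts in every library left 290 higher genes, and limma on log2(FPKM + 1) called 221 higher and 240 lower, 212 and 239 without a filter on low values, and 322 and 379 on log2(FPKM + 0.1). Pseudocounts and the filter lower these counts by construction, since they shrink or remove low genes. Against days 5 and 10, the length term gave 3828 lower genes. The cause was not tested.

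Leaving out pairs of day 0 libraries was chosen after seeing the data, as was leaving out day 0 replicate 1 with day 7 replicate 4. Without day 0 replicates 1 and 4, 938 genes were higher by over 1.5, and the log2 fold change took the opposite sign for Col1a2 (-0.33), Ccn2 (0.25), Tagln (0.44), Myh3 (4.29), Fosb (0.77) and Per3 (1.57). Without replicates 2 and 3 it did so for Cpa3 (0.25), Pi16 (0.42), Krt14 (-0.45), Sc5d (0.24), Arntl (0.53) and Clock (0.34). None of these 12 genes passed with all libraries. Of the values of 193 named genes under all alternatives, 4862 kept direction and side of the threshold, 202 newly passed and 102 no longer passed. Of the medians of 47 lists, 1080 values moved by less than the spread between replicates and 95 by more.

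Same-numbered libraries of days 0 and 7 did not deviate together (r of -0.087 to 0.0036 across genes), which cannot show whether they shared a batch. With the replicate block 2640 genes were higher and 3063 lower (559 and 701 by over 1.5). Against days 5 and 10 the block gave 2322 and 1972. Replicate 4 of days 5 and 7 had r = 0.224, against 0.0172 to 0.0369 for the other numbers of these days. Both of these libraries had a falling length slope (-0.140 and -0.061), whose part in this value was not tested. Depth limits genes with few counts, such as Camp.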
